A study of Mus musculus with 2 samples.

Results

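The 10 genes described here encode cytokines of the interleukin-12 (IL-12) and interleukin-6 (IL-6) families and the receptor chains of IL-6. They are Il12a, Il12b, Il23a, Il27, Ebi3, Il6, Lif, Osm, Il6ra and Il6st. They were taken by family, matching the Entrez Gene numbers of the files to mouse symbols, and all 10 were found among 18090 gene IDs. These genes, and the gene lists used below, were chosen with earlier results of these data known. RNA of bone-marrow-derived dendritic cells (DC) of C57BL/6 mice was sequenced in 1 library labelled mature and 1 labelled immature. Per the labels' protocols, marrow had been grown for 6 days with 10 ng/ml GM-CSF and 1 ng/ml IL-4, growth factors under which precursors become DC in culture. The cells named sample 2, read here as the mature ones, also received lipopolysaccharide (LPS, a bacterial cell wall component) at 100 ng/ml for 24 h in the same medium. Cells of both states had been sorted by their surface I-Ab, an MHC class II molecule, and CD86, with gates that are not given. Whether the immature cells spent the extra time in culture, and how many animals were pooled, is not given either.

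The IL-12 family is made of heterodimers that join a helical chain to a chain built like a soluble cytokine receptor. The helical p35 (Il12a) joins the receptor-like p40 (Il12b) to form IL-12, the inducer of Th1 cells, and p19 (Il23a) joins the same p40 to form IL-23, which maintains Th17 cells. The helical p28 (Il27) joins Ebi3 to form IL-27, and p35 joins Ebi3 in IL-35. IL-6, LIF and OSM are single-chain helical cytokines whose receptors share the signalling chain gp130 (Il6st), while the alpha chain Il6ra binds IL-6 alone. A DC can therefore make a given dimer only if it transcribes both of its genes, and the question of the design, what maturation does to the transcriptome, was put to each chain.

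The mature library held 8.07 M uniquely placed reads and the immature library 7.56 M. With 1 library a state there was no replicate error, no test was made, and every difference is one between these libraries. Levels are RPKM, reads per 1000 bases of gene model and per 1000000 counted reads. Each ratio divides the mature by the immature RPKM, and its exact 95% interval from the read counts stands in parentheses. The intervals cover counting error only, because each state has 1 library. Without molecular identifiers several reads can stem from 1 molecule, so the intervals may be too narrow even for counting error. A gene was called higher or lower from a 2-fold difference in (RPKM + 1) upwards, a scale that draws low genes towards no change. In such bulk RNA, fewer cells of a type and less RNA per cell cannot be told apart.

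Of 14 DC markers all 14 had reads in both libraries, and 8 were called higher and 2 lower (Itgax and Dpp4) in the mature one. The higher ones were Cd80, Cd83, Cd86, Cd40, Ccr7, Fscn1, Flt3 and Zbtb46. Cd86 and the MHC class II genes encode molecules of the kind used for sorting, so their levels are not independent of the sort. Flt3 reached 1 RPKM in the mature library alone. The count is no measure of purity. Of all 11547 genes at 1 RPKM or more in either library, 9.05% were called higher and 11.3% lower. The DC markers summed to 6577 RPKM in the mature and 8155 RPKM in the immature library. Cd74 led both sums, at 2910 RPKM in mature and 5173 RPKM in immature cells. Markers of other marrow cells also moved. Their summed level was 2341 RPKM in the mature and 9642 RPKM in the immature library for 13 macrophage or monocyte genes (1 higher, 7 lower), with Lyz2, a lysozyme, the most abundant at 1324 RPKM in mature and 8168 RPKM in immature cells. For 12 neutrophil and precursor genes (10 lower) the sums were 867 RPKM in the mature and 6796 RPKM in the immature library, led by S100a9 at 501 RPKM in mature and 3449 RPKM in immature cells. No gene of either list was at 0. For 10 eosinophil, basophil and mast cell genes (0 higher, 5 lower) the sums were 18.2 RPKM in mature and 218 RPKM in immature cells. Gata2 led in the mature library, at 8.71 RPKM against 9.25 RPKM in the immature one. Prg2 led in the immature library, at 145 RPKM against 4.29 RPKM in the mature one. Fcer1a, Mcpt4 and Ms4a2 were listed in neither file. The 7 plasmacytoid DC genes summed to 212 RPKM in mature and 107 RPKM in immature cells. Most of both sums was Bst2, at 174 RPKM in mature and 84.4 RPKM in immature cells. Of the 7, 4 reached 1 RPKM, with 2 called higher and 0 lower. Siglech had 2 reads in the mature and 1 in the immature library, Ccr9 had 8 and 5, and Klk1 was at 0 in the mature library. Stromal and endothelial genes summed to 23.6 RPKM in mature and 39.9 RPKM in immature cells, led by Pecam1, with Cxcl12 listed in neither file and Pdgfra at 0 in the immature library. Genes of B, T and NK cells summed to 6.41, 7.50 and 12.0 RPKM in the mature library, led by Cd22, Cd3d and Gzmb. In the immature one they summed to 10.1, 4.32 and 5.76 RPKM, led by Cd22, Cd8a and Gzmb. Those at 0 reads included Ebf1, Pax5, Cd28 and Klrb1c in the mature library, and Vpreb1, Cd4 and Ncr1 in the immature one, and Klra8 was listed in neither. The part of such cells in the differences below was not tested.

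Of the 10 genes, 5 were called higher in the mature library, 0 lower, and 5 lay within 2-fold. Over all 11547 genes that reached 1 RPKM in either library, 9.05% were called higher, 11.3% lower and 20.4% in either direction. The median log2 fold on the (RPKM + 1) scale was 1.04 over the 10 genes and 0.026 over all genes. The 5 higher genes were Il12b, Il6, Il6st, Il12a and Lif. Il12b passed the 1 RPKM filter through the mature library alone. The 10 genes were chosen with earlier results of these data known, so the counts are descriptive. With a pseudocount of 5 RPKM the count was 3, without Il12a and Lif, beside 4.06% of all genes, and at 4-fold it was 2, Il12b and Il6, beside 1.71%.

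Among the helical chains of the IL-12 family, Il12a was the one called higher. Il12a (p35, Entrez Gene 16159) had 118 reads and 11.2 RPKM in the mature library, against 32 reads and 3.25 RPKM in the immature library, a ratio of 3.45 (2.32 to 5.28). Il27 (p28, 246779) had 18 reads and 3.16 RPKM in mature cells and 7 reads and 1.31 RPKM in immature cells, a ratio of 2.41 (0.96 to 6.82) whose interval includes 1. Il23a (p19, 83430) had 13 reads and 1.18 RPKM in the mature and 15 reads and 1.46 RPKM in the immature library, 1.23-fold lower (0.547 to 2.81). At this depth no difference was detectable for Il27 or Il23a, and both intervals reach past 2-fold. The deposited model of Il27 is 705 bases long, the coding length of its GENCODE transcript with the stop codon, so its count may leave out untranslated parts. In GENCODE 103 exonic but 0 coding bases of Il27 lie opposite Apobr, a protein-coding gene with 1512 reads in the mature and 1674 reads in the immature library, and the strandedness of the reads is not given.

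Of the receptor-like chains, Il12b was close to absent in immature cells and Ebi3 was abundant in both states. Il12b (p40, 16160) had 369 reads over 91.95% of its model in the mature library, at 23.4 RPKM. In the immature library it had 2 reads over 3.38% of the model, at 0.136 RPKM. The ratio of 173 (47.5 to 1433) rests on those 2 reads, which leave its upper bound loose. On the (RPKM + 1) scale the log2 fold was 4.43, above 99.9% of all genes, but 2.47 with a pseudocount of 5 RPKM and 6.64 with 0.1 RPKM. Ebi3 (50498) stood at 80.1 RPKM (768 reads) in the mature and 51.0 RPKM (458 reads) in the immature library, a ratio of 1.57 (1.40 to 1.77). This was beyond counting error and inside 2-fold. In the GENCODE annotation 270 exonic bases of Ebi3 lie opposite the antisense RNA gene Gm16712, whose reads cannot be told apart without knowing the strand.

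**Figure D1:**
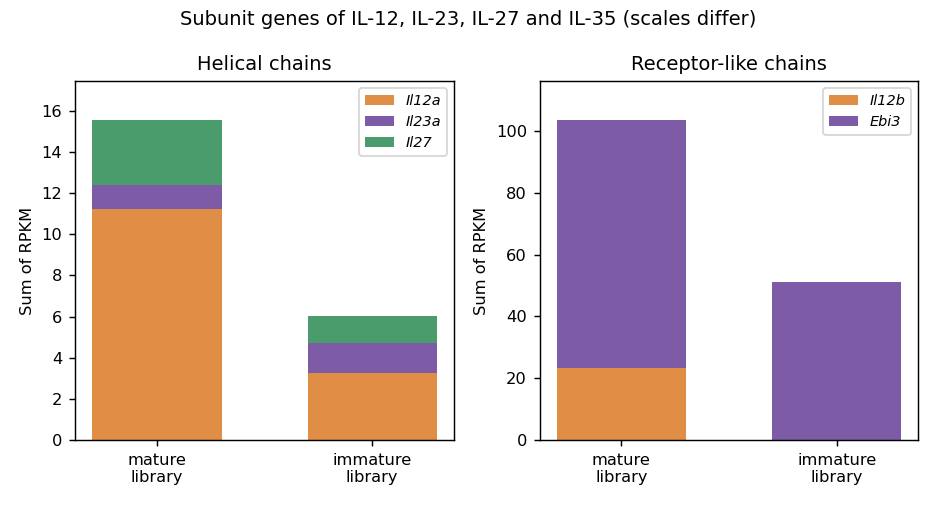
Summed RPKM of the helical chain genes (left) and the receptor-like chain genes (right) of the IL-12 family, in the mature and immature libraries, 1 library each and no error bars. The helical sum is 15.6 RPKM in the mature and 6.02 RPKM in the immature library, and Il12b is visible only in the mature bar.

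The balance of paired chains can be read within a library as a ratio of RPKM, which compares levels per length. In bulk RNA such a ratio cannot show whether both messages lay in the same cells. For IL-12, Il12b to Il12a was 2.09 (1.69 to 2.59) in the mature library, against 0.0417 (0.00485 to 0.164) in the immature library. Immature cells thus had more p35 than p40 message per length and mature cells the reverse, and the intervals do not overlap. For IL-23, Il12b to Il23a was 19.8 (11.4 to 37.5) in the mature and 0.0929 (0.0103 to 0.399) in the immature library. With covered bases in place of the full length the immature ratios became 0.638 for Il12b to Il12a and 1.09 for Il12b to Il23a, which turned, and the mature Il12b to Il23a ratio became 6.47. Covered bases themselves grow with the reads, and the immature values rest on 2 Il12b reads.

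Il12a and Il23a, which use the same p40 partner, stood at a ratio of 9.47 (5.33 to 18.3) in the mature and 2.23 (1.17 to 4.42) in the immature library. Message of p35 was thus in excess of p19 in both, and by more in mature cells. With covered bases as length the ratio was 3.61 in the mature and 1.71 in the immature library. Set against the sum of both partners, Il12b was 1.89 times Il12a plus Il23a in the mature and 0.0288 times in the immature library.

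Ebi3 exceeded each of its helical partners in both states. Ebi3 to Il27, the IL-27 pair, was 25.3 (15.9 to 43.0) in the mature and 38.9 (18.7 to 97.2) in the immature library, with overlapping intervals. Ebi3 to Il12a, the IL-35 pair, was 7.14 (5.88 to 8.75) in the mature and 15.7 (10.97 to 23.2) in the immature library, with separate intervals. With covered bases as length Ebi3 to Il27 was 17.0 in the mature and 12.7 in the immature library, which turned their order, and Ebi3 to Il12a was 5.77 in the mature and 8.42 in the immature library.

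Summed over chains, the receptor-like genes held 104 RPKM in the mature and 51.1 RPKM in the immature library, which was 6.65 times the helical sum in the mature and 8.50 times in the immature library. Il12b made up 22.6% of the receptor-like sum in the mature and 0.265% in the immature library, and Ebi3 the rest. Il12a made up 72.1% of the helical sum in the mature and 53.9% in the immature library, Il23a 7.61% in the mature and 24.2% in the immature one, and Il27 20.3% in the mature and 21.8% in the immature one. The composition of the receptor-like chains thus moved towards p40, and among the helical chains p35 gained on p19. No interval was computed for the shares. The helical shares rest on 118 Il12a, 13 Il23a and 18 Il27 reads in the mature library. In the immature library they rest on 32, 15 and 7 reads. These are message levels, and no protein was measured.

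The region upstream of Il12b is shown because that gene had the largest ratio of the family. The 250 bases before its start in RefSeq (GRCm38.p6, chr11:44399813-44400062, plus strand) read as follows, with 1 motif match in capitals.
Il12b: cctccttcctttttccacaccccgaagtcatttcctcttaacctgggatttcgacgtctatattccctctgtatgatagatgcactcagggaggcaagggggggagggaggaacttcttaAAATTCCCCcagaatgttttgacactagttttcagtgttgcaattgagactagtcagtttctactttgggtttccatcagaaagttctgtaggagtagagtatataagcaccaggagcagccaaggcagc
The capitals are GGGGAATTT on the minus strand, a Rel half-site found in 0.231% of 32851 promoters of the same length. The motif was written with the known Il12b site in mind, so its presence there is no finding. RefSeq promoters were given for 7 of the 10 genes, all but Il23a, Il27 and Osm.

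Of the single-chain cytokines, Il6 and Lif were called higher in the mature library and Osm was not called. Il6 (16193), an inflammatory cytokine of the acute phase, had 1181 reads and 135 RPKM in the mature library, against 120 reads and 14.6 RPKM in the immature library. The ratio was 9.22 (7.64 to 11.2). Reads covered 72.95% of the Il6 model in the mature and 70.65% in the immature library, so about the same part lacked unique reads at either depth, and its RPKM may be low for that reason, which was not tested.

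Lif (16878), a cytokine known for holding mouse embryonic stem cells undifferentiated, had 310 reads and 9.56 RPKM in mature cells and 106 reads and 3.49 RPKM in immature cells, a ratio of 2.74 (2.19 to 3.45). Osm (18413), a myeloid cytokine that acts on liver and stromal cells, had 700 reads and 45.5 RPKM in the mature and 410 reads and 28.4 RPKM in the immature library, a ratio of 1.60 (1.41 to 1.81). Lif and Osm are adjacent protein-coding genes on chromosome 11 in RefSeq. Osm was the more abundant of them in both libraries, and Lif had the larger ratio.

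The 250 bases before the start of Il6 (GRCm38.p6, chr5:30012864-30013113, plus strand) are printed as the promoter with the most matches among those searched. The number of matches depends on the motifs chosen, so that Il6 had the most is no finding.
Il6: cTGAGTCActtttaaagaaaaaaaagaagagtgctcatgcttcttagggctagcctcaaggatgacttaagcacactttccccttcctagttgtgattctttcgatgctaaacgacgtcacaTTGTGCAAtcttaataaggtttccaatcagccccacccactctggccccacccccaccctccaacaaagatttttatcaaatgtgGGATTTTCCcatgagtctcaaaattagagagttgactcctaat
Capitals mark, from left to right, matches to AP-1 (TGANTCA), C/EBP (TTGCNNAA, on the minus strand) and NF-kB (GGANTTTCC), the last beginning at position -43 from the start. Of the 32851 promoters, 6.75% held the AP-1, 9.56% the C/EBP and 1.07% the NF-kB motif on either strand. The other motifs searched were GAAANNGAA for ISRE (7.13% of promoters), AGAGGAAG for ETS (3.67%), TATAAA for TATA (12.4%) and TGACGTCA for CRE (1.55%). Beyond these, Lif held 1 AP-1 match, and the windows of Il12a (2 starts), Ebi3, Il6ra and Il6st held none of the 8 motifs as written. Other forms of these sites were not searched, so the absence of a match is not the absence of a site. A match is a run of letters and not a shown binding site.

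Of the receptor chains of IL-6, Il6st was called higher and Il6ra lay within 2-fold. Il6st (gp130, 16195) had 2549 reads and 57.9 RPKM in the mature library, against 617 reads and 14.96 RPKM in the immature library, a ratio of 3.87 (3.54 to 4.23). Il6ra (16194), the chain that binds IL-6, had 225 reads and 8.34 RPKM in the mature and 258 reads and 10.2 RPKM in the immature library, 1.22-fold lower (1.02 to 1.47). The ratio of Il6st to Il6ra was 6.95 (6.06 to 7.997) in the mature and 1.47 (1.27 to 1.70) in the immature library, so the shared chain exceeded the specific one in both and by more in mature cells. Raw reads not divided by length gave 11.3 in the mature and 2.39 in the immature library. In GENCODE, 242 exonic bases of Il6ra lie opposite the antisense gene Gm42809. Il6 stood at 16.1 times the RPKM of Il6ra in the mature and 1.43 times in the immature library.

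**Figure D2:**
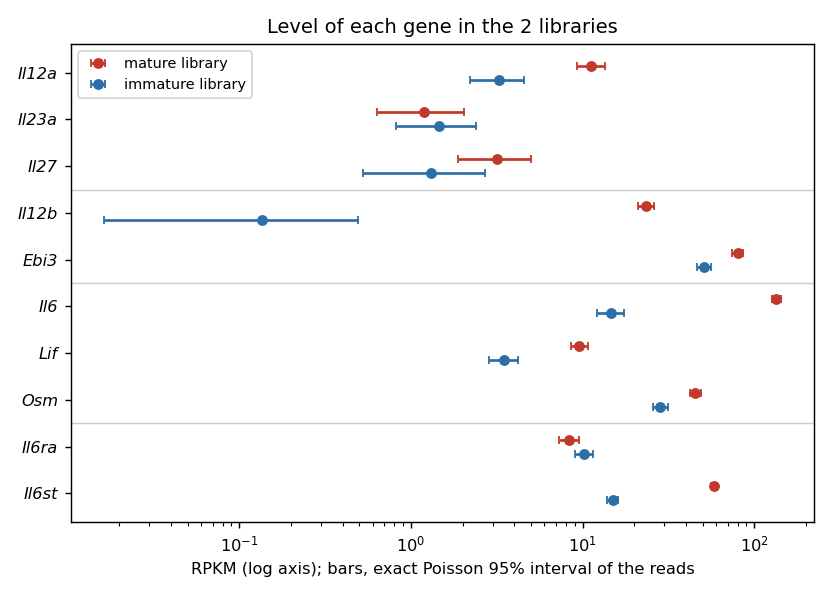
RPKM on a log axis of each gene in the mature (upper point) and immature (lower point) library, with exact Poisson 95% intervals of the reads; lines part helical chains, receptor-like chains, single-chain cytokines and receptors. Il12b stands at 23.4 RPKM in the mature and 0.136 RPKM in the immature library, and the intervals of Il23a overlap.

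Ordered by level per length, the mature library had Il6, Ebi3, Il6st, Osm, Il12b, Il12a, Lif, Il6ra, Il27 and Il23a, from 135 to 1.18 RPKM. Il12a and Lif, and Lif and Il6ra, did not differ beyond counting error. The immature library had Ebi3, Osm, Il6st, Il6, Il6ra, Lif, Il12a, Il23a, Il27 and Il12b, from 51.0 to 0.136 RPKM. Il6st and Il6, Lif and Il12a, and Il23a and Il27 were not resolved there. Il6 thus stood first of the 10 in mature cells, and Il12b, last of all in immature cells, stood above Il12a, Lif, Il6ra, Il27 and Il23a in mature cells. Among all genes with reads, Il6 was at percentile 97.2 of level in the mature and 71.8 in the immature library, and Il12b at 80.6 in the mature and 11.9 in the immature library.

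**Figure D3:**
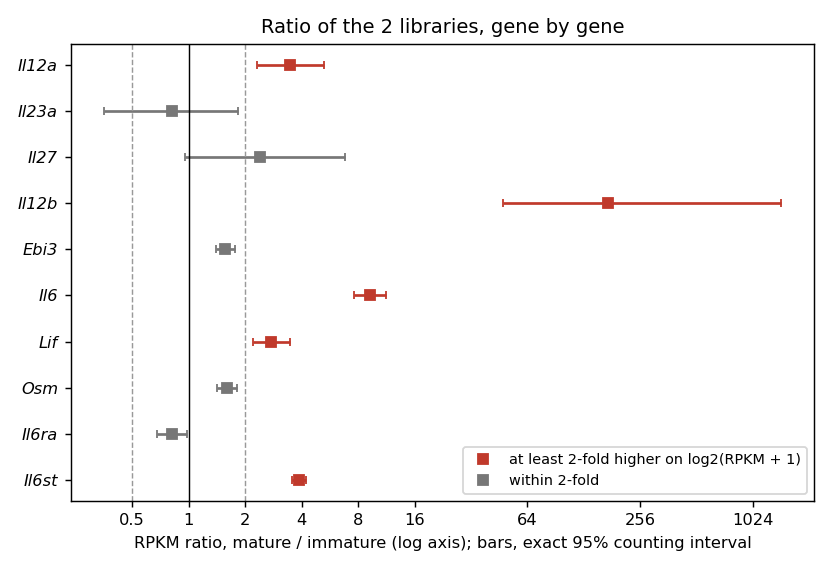
Ratio of mature to immature RPKM of each gene on a log axis, with exact 95% counting intervals; dashed lines mark 2-fold either way. Il12b, Il6, Il6st, Il12a and Lif (red) were called at least 2-fold higher as (RPKM + 1), and Il27 (grey), at a plain ratio of 2.41, was not.

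The nearest genes in the plane of both levels were found by Euclidean distance on log2(RPKM + 1) over 2 libraries. Among 11122 other named genes, they are those most alike in level in both libraries. Distances also depend on how many genes lie at a level, so they do not rank how common each pattern was. Il12a had Traf3ip2 (11.2 RPKM in mature, 3.23 in immature cells) and Lrrc61 within a distance of 0.0074. Il6st had Ccdc6 (59.2 RPKM in mature, 14.7 in immature cells) and Birc2 within 0.125, and Lif had Gbp8 and Fam8a1 within 0.0486. Il6 had Car2 (135 RPKM in mature, 17.2 in immature cells) and Fscn1 (117 RPKM in mature, 15.8 in immature cells) within 0.226. Il12b was the most isolated of the 5 called genes, its nearest being Vnn3 (16.7 RPKM in mature, 0.365 in immature cells) at 0.536 and Enpp2 (38.4 RPKM in mature, 0.0816 in immature cells) at 0.693.

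Many short-lived cytokine messages carry AU-rich elements in the 3' untranslated region (UTR), repeats of the pentamer AUUUA bound by proteins that mark the message for decay. In the GENCODE M21 transcript nearest in length to each deposited model, 8 of the 10 genes had at least 5 such pentamers. Among 10474 genes with at least 1 RPKM and an annotated 3' UTR, 18.4% had as many and the median was 1. Lif had 7, and Il12a, Il12b, Il23a, Il6, Il6st and Osm had 6 each, Il27 had 5, and Ebi3 and Il6ra had 1 each. Per 1000 bases of UTR, Il27 had 17.5, Il6 14.1, Il12a 12.1, Il23a 9.13 and Il12b 7.75, against a median of 1.20 over all genes. Ebi3 had 4.08 on a short UTR, and 10.9% of genes were at least as dense. Il6ra had 0.544, and 62.5% of genes were at least as dense. The densities of Osm, Il6st and Lif were 5.90, 2.48 and 2.20.

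**Figure D4:**
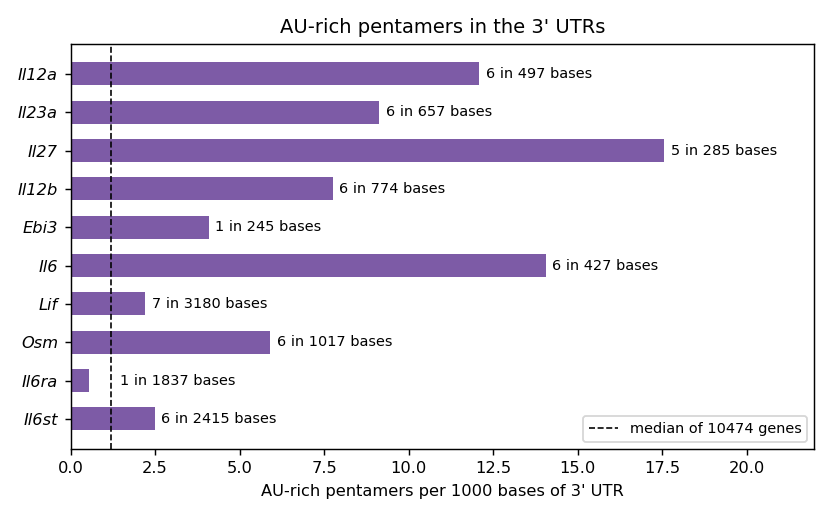
AU-rich pentamers per 1000 bases of annotated 3' UTR of each gene, with the count and UTR length beside each bar; the dashed line is the median of 10474 genes, 1.20. Il27, Il6 and Il12a have the longest bars, and Il6ra lies below the line.

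The densest 30-base windows are printed for the IL-12 pair and Il27, in DNA letters with each pentamer in capitals (GRCm38: Il12a chr3:68698434-68698463, plus strand; Il12b chr11:44413473-44413502, plus strand; Il27 chr7:126589090-126589119, minus strand).
Il12a: gcctATTTAtATTTATTTAttttctATTTA
Il12b: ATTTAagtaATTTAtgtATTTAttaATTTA
Il27: ccagatATTTAtttcttggatATTTATTTA
Il12a and Il12b held 4 pentamers each in such a window and Il27 3, some of them overlapping. The longer element TTATTTATT, the preferred site of tristetraprolin, was found in the UTRs of 4 of the 10 genes (Il12a, Il23a, Il27 and Lif) and of 6.93% of all genes.

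Of 11 regulators of message stability, 0 were called higher and 0 lower, beside 9.05% and 11.3% of all genes. Their log2 folds ran from -0.68 for Hnrnpd, an AU-binding protein, to 0.66 for Zc3h12a, the nuclease Regnase-1 that cuts Il6 and Il12b messages, both named after their values were seen. The list's median was 0.29.

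Among 16 other ligands and receptors of both families, 13 had reads and 8 reached 1 RPKM. Of these 8, 2 were called higher and 2 lower, with a median log2 fold of 0.14. Il23r and Il31ra passed the 1 RPKM filter through the mature library alone, and Il27ra through the immature one alone. Over all genes 9.05% were called higher and 11.3% lower. The higher ones were Il23r, the p19-specific chain of the IL-23 receptor, and Il31ra, the receptor of IL-31 and the neighbour of Il6st on chromosome 13. Il23r had 51 reads and 2.54 RPKM in the mature and 2 reads and 0.106 RPKM in the immature library, a ratio of 23.9 (6.28 to 203). Il31ra stood at 3.94 RPKM in mature and 0.683 RPKM in immature cells, a ratio of 5.77 (3.53 to 9.92). The lower ones were Il27ra, the IL-27-binding receptor, at 0.742 RPKM in the mature and 2.77 RPKM in the immature library, 3.74-fold lower (2.11 to 6.98), and Lifr, the LIF receptor, at 1.29 RPKM in mature and 3.95 RPKM in immature cells, 3.05-fold lower (2.43 to 3.87).

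The chains of the IL-12 receptor lay within 2-fold. Il12rb1, which binds p40, stood at 2.28 RPKM in the mature and 2.90 RPKM in the immature library, a ratio of 0.788 (0.536 to 1.15), and Il12rb2 at 10.0 RPKM in mature and 5.61 RPKM in immature cells, a ratio of 1.79 (1.44 to 2.24). Osmr, the OSM receptor, had 1 read in each library. Cntfr and Ctf2 were listed in neither file. Reads covered 24.8% of the Il12rb2 model in the mature and 24.0% in the immature library. All 4 calls were lost with a pseudocount of 5 RPKM, with a filter at 5 RPKM and at 4-fold.

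Downstream of the receptors, 6 of 17 JAK-STAT and feedback genes were called higher and 1 lower, with a median log2 fold of 0.65. Over all genes 9.05% were called higher and 11.3% lower. Stat4, the transducer of IL-12, stood at 176 RPKM in the mature and 8.29 RPKM in the immature library, a ratio of 21.3 (18.4 to 24.8). Stat3, the main transducer of gp130, stood at 56.2 RPKM in mature and 26.2 RPKM in immature cells, a ratio of 2.15 (1.98 to 2.33), and Jak2, a kinase bound to these receptors, at 318 RPKM in mature and 133 RPKM in immature cells, a ratio of 2.39 (2.31 to 2.47). Ratios were 2.96 for Stat5a and 2.77 for Stat5b, STATs of other cytokine receptors. The lower gene was Ptpn6, a phosphatase that dampens cytokine signals, at 70.2 RPKM in the mature and 208 RPKM in the immature library, 2.97-fold lower (2.78 to 3.17). Tyk2, the kinase of Il12rb1, had a ratio of 0.898 (0.834 to 0.966), and Socs3, the inhibitor of gp130 signalling, 1.71 (1.53 to 1.91). At 4-fold only Stat4 of the 17 was called, beside 1.71% of all genes higher and 2.74% lower.

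Of 15 genes known to respond to IL-6 type cytokines through STAT3, 2 were called higher and 2 lower. Over all genes 9.05% were called higher and 11.3% lower, so the list lay near the share of all genes. The higher ones were Saa3, an acute phase gene, with a ratio of 23.3 (17.4 to 31.9), and Il4ra, a receptor chain of IL-4, with 2.72 (2.59 to 2.87). Hp, haptoglobin, was 9.28-fold lower (8.33 to 10.4) and Ccnd1, a G1 cyclin, 10.96-fold lower (8.59 to 14.2). The list's median log2 fold was 0.42.

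Of 28 transcription factors known to act on these promoters, 27 reached 1 RPKM, 8 were called higher and 2 lower, with a median log2 fold of 0.71. Over all genes 9.05% were called higher and 11.3% lower. Irf7 and Irf8, interferon regulatory factors, had ratios of 16.3 (13.3 to 20.1) and 9.42 (8.76 to 10.1), and Irf9 2.63 (2.29 to 3.03). Irf8, known to activate Il12b, stood at 350.4 RPKM in mature and 37.2 RPKM in immature cells. Fos, of AP-1, had a ratio of 3.40 (2.97 to 3.897). Atf3 and Nfil3, both known to restrain Il12b, had ratios of 2.99 (2.82 to 3.17) and 3.72 (2.45 to 5.79), the Nfil3 reads covering 18.5% of its model in the mature and 17.0% in the immature library. The remaining called genes, named after their values were seen, were the NF-kB genes Nfkb2 and Rel (ratios of 2.27 and 2.12) and, lower, Spi1 and Ahr (ratios of 0.432 and 0.456). At 4-fold Irf7 and Irf8 were left, beside 1.71% of all genes higher and 2.74% lower.

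The genes that carry out or regulate the release of Il6ra from the surface included Timp3, an inhibitor of such release. Of these, 4 of 5 reached 1 RPKM and 0 were called, beside 20.4% of all genes in either direction. Their median log2 fold was -0.14. With a pseudocount of 0.1 RPKM 1 was called, Timp3, at a ratio of 2.77 (1.76 to 4.51). At that setting 12.9% of all genes were called higher and 14.4% lower. Timp3 passed the 1 RPKM filter through the mature library alone.

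**Figure D5:**
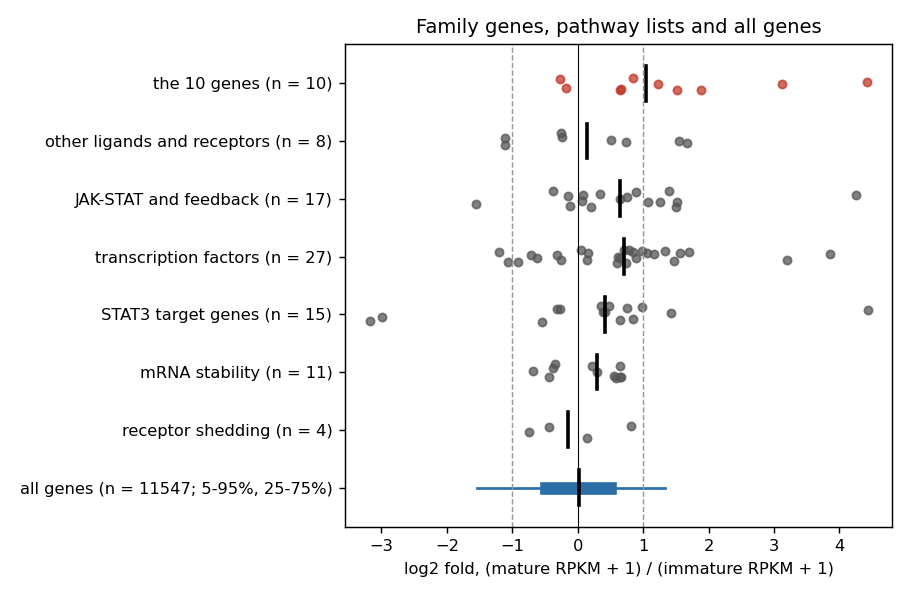
Log2 fold of (mature RPKM + 1) over (immature RPKM + 1) for the 10 genes (red), 6 pathway lists (grey points, 1 a gene) and all 11547 genes (thick bar, 25th to 75th percentile; thin line, 5th to 95th); black ticks are medians and dashed lines 2-fold. The 10 genes have a median of 1.04, and 2 of them lie below 0.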

How the data were processed

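RNA-seq of 1 mature and 1 immature DC library was analysed. Per the file headers, the authors deposited the count of uniquely placed reads of each gene, the model length, the percent of the length covered, and RPKM. The deposited RPKM equal reads per 1000 bases and 1000000 counted reads within a relative deviation of 1.07e-07. The genome build was mm8, per the submitters' processing notes. Aligner, counter, strandedness and annotation: not given in the sources used here. Counts sum to 8073541 in the mature and 7563533 in the immature library, and 3 reads on 1000 bases are 0.372 and 0.397 RPKM. A gene in 1 file alone was taken as 0 reads in the other; for a gene in neither, whether the annotation held it is not known.

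Symbols came from RefSeq GRCm38.p6 (16220 of 18090 IDs). Intervals are Clopper-Pearson or exact Poisson (scipy 1.17.1, Python 3.11.15). The members and lists were chosen with earlier results of these data known. Named were all members; up to 6 called genes a list by size, with the receptors, kinases and STATs; the 2 nearest genes of each called member; and the top gene of each cell type list. Alternatives were pseudocounts, filters, thresholds, lengths and scalings (edgeR 4.0.16 TMM, median of ratios, common RPKM sums). The calling steps were tested on simulated data. Promoters came from RefSeq and UTRs from GENCODE M21. A few list genes named by this rule are not reported here.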

Additional observations from a re-analysis of the deposited data

How the results depend on the processing

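The members called lower stayed at 0, and those called higher at 5, under the 4 scalings, no filter, a filter at 5 RPKM, and with the counting interval wholly beyond 2-fold. The higher count was 6 with a pseudocount of 0.1 RPKM, which added Il27, 3 with 5 RPKM and 2 at 4-fold, beside 12.9%, 4.06% and 1.71% of all genes. The scalings moved the median of all genes by -0.033 to 0.0998. Every member kept its sign under the pseudocounts and scalings; Il23a ranged from -0.28 to -0.063 and Il6ra from -0.30 to -0.16. List genes at least 2-fold apart numbered 0 among other ligands and receptors with a pseudocount of 5 RPKM, a filter at 5 RPKM and at 4-fold. At 4-fold they numbered 1 for JAK-STAT genes and 2 for transcription factors, and 1 for shedding genes with 0.1 RPKM. The shares of all genes called higher and lower were 4.06% and 5.94% with 5 RPKM, and 9.75% and 12.1% with the filter. They were 1.71% and 2.74% at 4-fold, and 12.9% and 14.4% with 0.1 RPKM. Raw reads gave Il12b to Il12a 3.13 in the mature library, and Il6st to Il6ra 11.3 in the mature and 2.39 in the immature library; the gene lengths alone make these shifts. Covered bases gave, in the mature library, Il12b to Il23a 6.47, Ebi3 to Il27 17.0, Ebi3 to Il12a 5.77 and Il12a to Il23a 3.61. In the immature library they gave Il12b to Il12a 0.638, Il12b to Il23a 1.09 (turned), Ebi3 to Il27 12.7 and Ebi3 to Il12a 8.42; covered bases grow with reads. No paired analysis was possible because each state has 1 library. Depth limits Il23a, Il27 and the immature Il12b most.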
